A study of Mus musculus with 18 samples.

Results

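The mouse genes whose symbols start with Nduf encode nuclear subunits and assembly factors of mitochondrial complex I. They were taken as all such symbols in the platform annotation with a value on at least 9 of the 18 arrays, which gave 38 genes of 10001 genes with a single symbol and a value. No Nduf symbol with a value fell below that minimum, and the gene with the fewest arrays, Ndufaf6, had 13. By their place in the complex, 7 belong to the N module, 7 to the Q module, 9 to the proximal and 9 to the distal membrane arm, and 6 are assembly factors. In all 36 could be tested across the groups. Ndufaf6 and Ndufv2 were left out of the tests because a group had no value for them, and their values are described only. Ndufs3, Ndufa4, Ndufa4l2 and Ndufab1 were not analysed here because no spot with a value carried that symbol alone.

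The arrays came from hearts of mice under chronic constant hypoxia (CCH, oxygen held low without a break), chronic intermittent hypoxia (CIH, oxygen lowered in repeated episodes) or neither (controls), each for 1, 2 or 4 weeks. Every one of the 9 groups had 2 arrays, so each condition had 6. On each array male heart cDNA labelled with Cy5 was set against Cy3-labelled female heart cDNA of the same condition and duration. Strain, age and oxygen level are not given in the sources used here, and the labels are silent on whether different animals stand behind both arrays of a group. The p-values below therefore measure the spread between these arrays, which may be technical.

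The values below are log2 ratios of male over female signal, set so that the array's median is 0. A value of -1 means that the male signal was lower than the female signal by the factor that 1 log2 unit stands for. Which sex is on top of the ratio is not stated in the labels. It was taken from the Y-linked gene Eif2s3y, whose stronger spot was above 0 on 17 of the 17 arrays that had a value for it. Its weaker spot was above 0 on 16 of 18 arrays and not on CIH 4 weeks replicate 1 and control 4 weeks replicate 1. The stronger spot had no value on CIH 4 weeks replicate 1, so the direction of that array rests on the other arrays. A change between conditions is a change of the male-to-female ratio, and the sex in which a transcript moved stays unknown. Where a mean ratio is set against 0, sex and dye cannot be told apart, because the male heart was in Cy5 on all 18 arrays. Such ratios hold no absolute levels, so the heart identity of the samples could not be checked by the level of its markers. In whole tissue, fewer cells of a type and less RNA per cell cannot be told apart.

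Complex I is the largest enzyme of the respiratory chain. It takes electrons from NADH at the N module, passes them along iron-sulfur clusters to ubiquinone at the Q module, and pumps protons through its membrane arm. Heart muscle depends on the respiratory chain for most of its ATP, and loss of single subunits causes mitochondrial cardiomyopathy in people. The membrane-arm subunits encoded by mitochondrial DNA do not carry Nduf names, and assembly factors help to build the complex without staying in it.

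Promoter stretches of the 4 genes that the ratios below turn on are shown first. Ndufs5 was the only member higher in males over all arrays, and Ndufa13 and Ndufa7 had the lowest mean ratios. Ndufa11 had the smallest p-value of the members both for CCH against controls and for CCH against CIH. Each stretch is 130 bases long and lies before the annotated start, from RefSeq on build GRCm38.p6, 5′ to 3′ on the strand of the gene. Capitals mark a match to GCGCANGCG, the core of the binding site of the respiratory regulator NRF1, or to AANATGGCG, that of the factor YY1, with overlapping matches joined. The stretch of Ndufa11 lies at chr17:56717632-56717761 (plus strand), that of Ndufs5 at chr4:123718187-123718316 (minus strand), that of Ndufa13 at chr8:69902021-69902150 (minus strand) and that of Ndufa7 at chr17:33824515-33824644 (plus strand). Ndufa7 has another annotated start, whose stretch at chr17:33824442-33824571 held no match and is not shown.
Ndufa11: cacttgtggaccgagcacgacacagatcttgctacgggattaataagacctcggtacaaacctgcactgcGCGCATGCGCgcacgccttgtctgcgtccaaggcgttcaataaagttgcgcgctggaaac
Ndufs5: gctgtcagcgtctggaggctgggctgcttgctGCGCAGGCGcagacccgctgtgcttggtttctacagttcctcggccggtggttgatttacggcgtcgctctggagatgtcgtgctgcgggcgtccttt
Ndufa13: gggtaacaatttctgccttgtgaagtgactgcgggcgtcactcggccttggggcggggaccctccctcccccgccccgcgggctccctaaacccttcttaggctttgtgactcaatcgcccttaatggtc
Ndufa7: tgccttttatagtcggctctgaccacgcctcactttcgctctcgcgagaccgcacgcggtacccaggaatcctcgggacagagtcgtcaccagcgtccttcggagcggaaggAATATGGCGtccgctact

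In the stretches of Ndufa11 and Ndufs5 the NRF1-type match starts 60 and 98 bases before the start, and in that of Ndufa7 the YY1-type match starts 18 bases before it. RefSeq gave 36 promoter windows for 34 of the 38 members, each with 250 bases before and 50 after the start, searched on both strands. The NRF1-type letters were in the windows of 9 of 34 members (26.5%) and of 7.03% of 27025 genes. The members were Ndufa11, Ndufa5, Ndufa6, Ndufa8, Ndufaf4, Ndufb10, Ndufb4, Ndufs5 and Ndufs6. The YY1-type letters were in the windows of 7 members (20.6%), namely Ndufa7, Ndufa9, Ndufb11, Ndufc1, Ndufs4, Ndufs6 and Ndufs7, and in 2.76% of all genes. The letters TATAAA were found for 4 members (11.8%) and 15.7% of all genes. CCGGAAGT, the core of ETS factor sites, was in no member's window and in 4.31% of all genes, and TCAAGGTCA, the core of oestrogen-related receptor sites, in no member's window and in 0.466% of all genes. The matches are a description of these windows and were not set against the array values.

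Between 12650 and 24512 of 28704 spots had a value on an array, and the number of arrays limits the precision of every value. Across the members, the values of both arrays of a group correlated between -0.08 (control 1 week) and 0.71 (CIH 2 weeks), while arrays of different groups correlated between -0.54 and 0.76. Control 2 weeks replicate 2 stood apart, since 37 of 38 members were below 0 on it and their median was -0.60, against -0.015 on the other control array of that duration. The title of CIH 1 week replicate 1 names that group, but its source names say 2 weeks of CCH. Control 2 weeks replicate 1 carries the code 1A in its title, although its labels name 2 weeks. Counts of genes whose groups do not overlap with the controls of the same duration are given with and without these arrays, a choice made after seeing the data. Medians over all members are given without some of these arrays in some comparisons. Medians of the modules and of other gene lists are given only with all arrays.

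**Figure D1:**
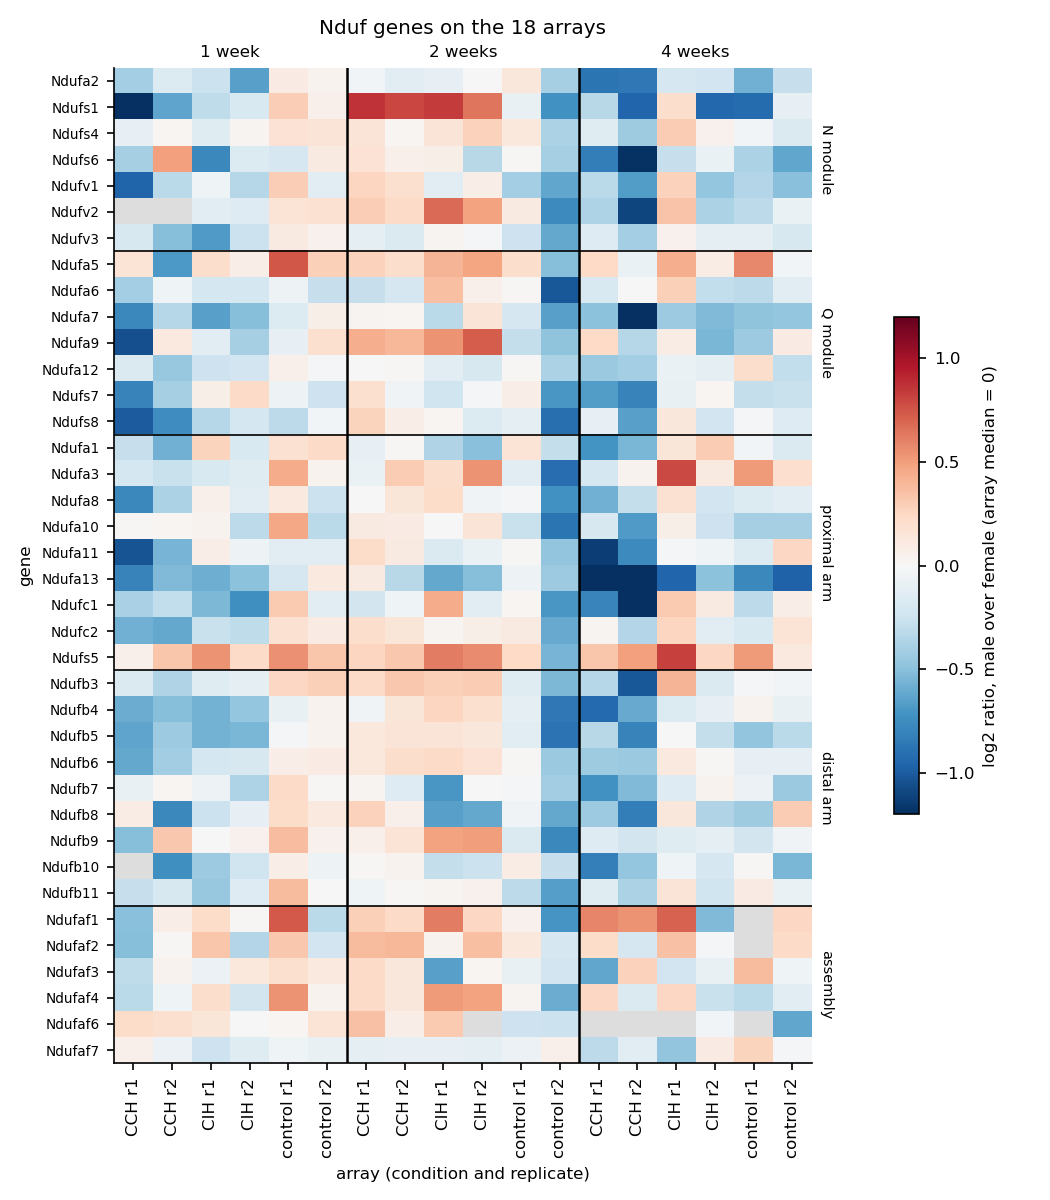
Log2 ratio of the male over the female signal for each of the 38 Nduf genes (rows, grouped by place in the complex) on each of the 18 arrays (columns, 1, 2 and 4 weeks from left to right), with array medians at 0; grey marks no value, and colours stop at -1.2 and 1.2. Both CCH columns of 1 week and of 4 weeks are mostly blue and those of 2 weeks mostly pale red, and the column of control 2 weeks replicate 2 is blue for 37 of 38 genes.

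Over all 18 arrays, 16 of the 36 tested Nduf genes were lower in the male than in the female hearts and 1 was higher (limma, adjusted p under 0.05), against 18.7% of all 10272 units lower and 8.99% higher. The median of the members' mean ratios was -0.16, against -0.040 over all units, and 29 of 36 were negative. At an unadjusted p under 0.05 there were 24 members (66.7%), against 41.1% of units. Lower members were found in each part of the enzyme, with 4 of 6 in the N module, 4 of 7 in the Q module, 3 of 9 in the proximal arm and 5 of 9 in the distal arm, while 0 of 5 tested assembly factors passed in either direction and 0 had an unadjusted p under 0.05.

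Ndufa13, a proximal arm subunit also known as the cell-death regulator GRIM-19, had the lowest mean ratio of all members. On the CCH arrays it read -0.81 and -0.53 at 1 week, 0.10 and -0.33 at 2 weeks, and -1.31 and -1.53 at 4 weeks. On the CIH arrays it read -0.58 and -0.50, -0.62 and -0.52, and -0.95 and -0.49, against -0.20 and 0.11, -0.06 and -0.43, and -0.77 and -0.97 on the controls. It was below 0 on 16 of 18 arrays and lowest on both CCH arrays of 4 weeks, which did not overlap with any other array. Its mean of -0.58 ± 0.06 (SE, n = 18 arrays; limma adjusted p = 3.81e-05) is a male signal 0.671 times the female one.

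Ndufs5, a small subunit held in the intermembrane space side of the proximal arm, went the other way. It read 0.06 and 0.33, 0.26 and 0.32, and 0.33 and 0.49 on the CCH arrays of 1, 2 and 4 weeks, and 0.54 and 0.23, 0.61 and 0.57, and 0.82 and 0.25 on the CIH arrays. The controls read 0.55 and 0.33, 0.24 and -0.55, and 0.51 and 0.12. It was above 0 on 17 of 18 arrays, the exception being control 2 weeks replicate 2, and the conditions overlapped. The mean was 0.33 ± 0.06 (SE, n = 18), with a limma adjusted p of 0.0026 and a male signal 1.26 times the female one.

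**Figure D2:**
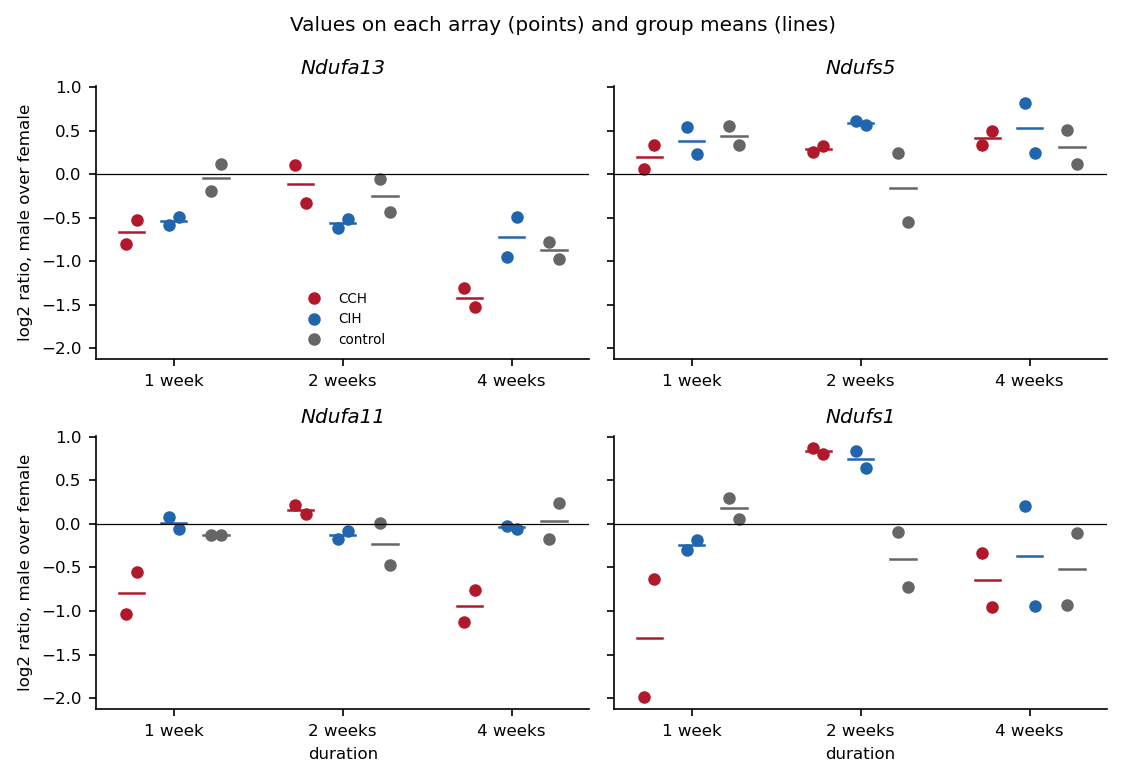
Log2 ratio of the male over the female signal (vertical axis) of Ndufa13, Ndufs5, Ndufa11 and Ndufs1 on each array (points) at 1, 2 and 4 weeks, for CCH (red), CIH (blue) and control (grey), with the mean of each group of 2 arrays as a line. Ndufa13 lies below 0 on 16 arrays and Ndufs5 above 0 on 17, Ndufa11 is lowest on the CCH arrays of 1 and 4 weeks, and Ndufs1 is highest on the hypoxia arrays of 2 weeks.

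Among the other lower members, Ndufa7, a Q module subunit, averaged -0.39 ± 0.06 (SE, n = 18; limma adjusted p = 0.000969) and was below 0 on 14 of 18 arrays. Ndufa2, a thioredoxin-like subunit of the N module, averaged -0.27 ± 0.05 (adjusted p = 0.0026), also below 0 on 14 arrays. Ndufs6, which carries a zinc ion in the N module, was at -0.26 (adjusted p = 0.0144, 12 of 18 arrays). Ndufs8, a Q module core subunit with iron-sulfur clusters, was at -0.25 (adjusted p = 0.0112, 14 of 18). In the membrane arm Ndufb10 was at -0.27 (adjusted p = 0.00519, 12 of 17), Ndufb5 at -0.27 (0.00492, 13 of 18), Ndufb4 at -0.25 (0.00562, 13 of 18) and Ndufc1 at -0.24 (0.0179, 12 of 18). The other 7 of the 16 had means of -0.23 to -0.16, and all 16 had both positive and negative arrays.

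The nuclear core subunits carry the flavin and the iron-sulfur clusters, and 5 of 7 had values. Of the 4 that could be tested, Ndufv1, which binds NADH and flavin, was lower in males at -0.23 (limma adjusted p = 0.0184), as were Ndufs7, the subunit with the last iron-sulfur cluster before ubiquinone, at -0.22 (adjusted p = 0.0124) and Ndufs8. Ndufs1, the N module subunit with the most iron-sulfur clusters, averaged -0.19 ± 0.10 (SE, n = 18; adjusted p = 0.169) and had the widest range of these, from -1.98 to 0.87. Ndufv2, a flavoprotein partner of Ndufv1, ranged from -1.10 to 0.68 over 16 arrays with a median of 0.017.

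Read by condition, the mean ratio was below 0 for 31 of 36 members under CCH, 23 under CIH and 28 in controls. The CCH arrays had 11 members lower and 0 higher (limma adjusted p under 0.05), where 7.89% of all units were lower and 2.89% higher. The CIH arrays had 2 lower and 1 higher, where 8.37% of units were lower and 3.73% higher. The control arrays had 0 members past the threshold, against 0.00974% of units, although 8 members had an unadjusted p under 0.05, all of them lower, against 6.68% of units. The members' median ratio was -0.25 under CCH, -0.056 under CIH and -0.12 in controls. In controls the median became -0.033 when control 2 weeks replicate 2 was left out, and -0.19 when replicate 1 was. The CIH median was -0.11 without CIH 4 weeks replicate 1, -0.030 without its replicate 2 and -0.085 without CIH 1 week replicate 1, so single arrays turn the order of CIH and controls. These counts do not compare the conditions with each other, which is done below, and they depend on single arrays. The CCH count was 2 without either CCH array of 2 weeks, 4 without CCH 1 week replicate 1 or CCH 4 weeks replicate 1, and 5 without CCH 1 week replicate 2.

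Under CCH the lower members were Ndufa13 (-0.73 ± 0.10, SE, n = 6; limma adjusted p = 0.00154), Ndufa11 (-0.53, adjusted p = 0.00663), Ndufc1 (-0.49, 0.0166), Ndufa7 (-0.47, 0.0168), Ndufb10 (-0.45, 0.0222), Ndufb4 (-0.42, 0.0145), Ndufs7 (-0.42, 0.0188), Ndufa2 (-0.41, 0.0133), Ndufa1 (-0.37, 0.0208) and Ndufs8 (-0.36, 0.0494), with Ndufb6 as the eleventh. Ndufc1 and Ndufa2 were below 0 on 6 of 6 CCH arrays, and Ndufa13 and Ndufa1 on 5. Ndufa1 and Ndufb11 are the 2 X-linked members. Under CIH, Ndufa13 was at -0.61 ± 0.10 (adjusted p = 0.005) and below 0 on 6 of 6 arrays, Ndufa7 was at -0.38 (adjusted p = 0.0347, 5 of 6), and Ndufs5 was at 0.50 ± 0.11 (adjusted p = 0.0122) and above 0 on 6 of 6. In controls the smallest p-values belonged to Ndufa13 (-0.39, adjusted p = 0.245), Ndufb5 (-0.30, 0.391), Ndufa7 (-0.32, 0.41), Ndufa10 (-0.30, 0.446) and Ndufv1 (-0.29, 0.459), each below 0 on 5 of 6 arrays. Without control 2 weeks replicate 2, Ndufb5 averaged -0.17 and Ndufa10 -0.20 in controls, and Ndufa10 averaged -0.17 without control 1 week replicate 2. The CIH count was 1 without CIH 1 week replicate 1, CIH 2 weeks replicate 2 or CIH 4 weeks replicate 1.

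The comparison of constant hypoxia with controls, averaged over the 3 durations, asks whether hypoxia changed the male-to-female ratio. None of the 36 members passed (limma), against 0% of all units, and the smallest adjusted p among members was 0.748. At an unadjusted p under 0.05 there were 5 members (13.9%), all lower, against 3.64% of units lower. The members' median difference was -0.12, with 29 of 36 negative, against -0.036 over all units. Leaving out control 2 weeks replicate 1 made the members' median -0.034, and leaving out its partner, replicate 2, made it -0.23. Quantile normalization gave -0.073, and scaling arrays to a common spread gave -0.035. Of the 5 members at an unadjusted p under 0.05, 4 sit in the proximal arm.

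Ndufa11, a membrane protein near the junction of the proximal and distal arms, had the smallest p in this comparison. It read -1.04 and -0.56 on the CCH arrays of 1 week, 0.22 and 0.11 on those of 2 weeks, and -1.13 and -0.76 on those of 4 weeks. The controls read -0.12 and -0.13, 0.02 and -0.48, and -0.17 and 0.24. The CCH arrays were below both controls of the same duration at 1 and 4 weeks and above both at 2 weeks. The difference averaged -0.42 ± 0.14 (SE; limma adjusted p = 0.748).

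Of the other 4, Ndufa1, a small subunit with a single membrane helix, had CCH values of -0.72 to 0.015 with a median of -0.41, against -0.29 to 0.23 with a median of 0.063 in controls. Its difference was -0.38 ± 0.13 (limma adjusted p = 0.749). Ndufa13 differed by -0.35 ± 0.14, Ndufc1 by -0.37 ± 0.16 and Ndufb10, a distal arm subunit with disulfide bonds, by -0.33 ± 0.15, each with an adjusted p of 0.749. The ranges of CCH and control arrays overlapped for all 5 genes.

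Intermittent hypoxia against controls gave 0 of 36 members past the threshold (limma), against 0.00974% of units, and 0 members at an unadjusted p under 0.05, against 12.7% of units. The members' median difference was 0.061, with 23 of 36 positive, against -0.0066 over all units, and leaving out control 2 weeks replicate 2 made it -0.022, while leaving out replicate 1 made it 0.17. It was 0.024 without CIH 4 weeks replicate 1 and 0.11 without CIH 4 weeks replicate 2, and 0.093 to 0.099 without CIH 1 week replicate 2, control 1 week replicate 1 or control 4 weeks replicate 2. The smallest p-values were those of Ndufs5 (0.30 ± 0.16, SE; limma adjusted p = 0.423), Ndufa6, a Q module subunit of the LYR protein family (0.29 ± 0.17, 0.458), Ndufs7 (0.24 ± 0.14, 0.462), Ndufb9, another LYR protein in the distal arm (0.26 ± 0.15, 0.462) and Ndufa13 (-0.22 ± 0.14, 0.474). Without control 2 weeks replicate 2 these differences were 0.17 for Ndufs5, 0.12 for Ndufa6, 0.11 for Ndufs7 and 0.16 for Ndufb9. Without replicate 1 of that group they were 0.46 for Ndufa6 and 0.37 for Ndufs7, and that of Ndufa13 was -0.15 without CIH 4 weeks replicate 1. For Ndufs7 all 6 CIH arrays were above the mean of the controls of the same duration, and for Ndufa6 and Ndufb9 3 of 6 were. Both comparisons with controls share the same 6 control arrays.

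Constant against intermittent hypoxia uses no control array. None of the 36 members passed (limma), against 0.00974% of units, and the smallest adjusted p was 0.184. At an unadjusted p under 0.05 there were 7 members (19.4%), all lower under CCH, against 3.69% of units lower. The members' median difference was -0.18, with 33 of 36 negative, against -0.026 and 55.6% negative over all units. It lay between -0.22 and -0.099 when any 1 array was left out, the value nearest to 0 being that without CIH 4 weeks replicate 1.

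Ndufa11 had the smallest p here too, with a difference of -0.47 ± 0.14 (SE; limma adjusted p = 0.184). On the CIH arrays it kept between -0.18 and 0.076 with a median of -0.058, while the CCH arrays given above spread from -1.13 to 0.22 with a median of -0.66. The 4 CCH arrays of 1 and 4 weeks lay below all 6 CIH arrays, and both of 2 weeks above them. Ndufs7 had CCH values of -0.81 to 0.19 with a median of -0.53, against -0.24 to 0.23 with a median of 0.0042 under CIH, a difference of -0.42 ± 0.14 (adjusted p = 0.299). Its ranges overlapped only through the CCH arrays of 2 weeks. Ndufb6, a distal arm subunit, differed by -0.28 ± 0.11 (0.416), Ndufc1 by -0.40 ± 0.16 (0.421) and Ndufa1 by -0.31 ± 0.13 (0.435).

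**Figure D3:**
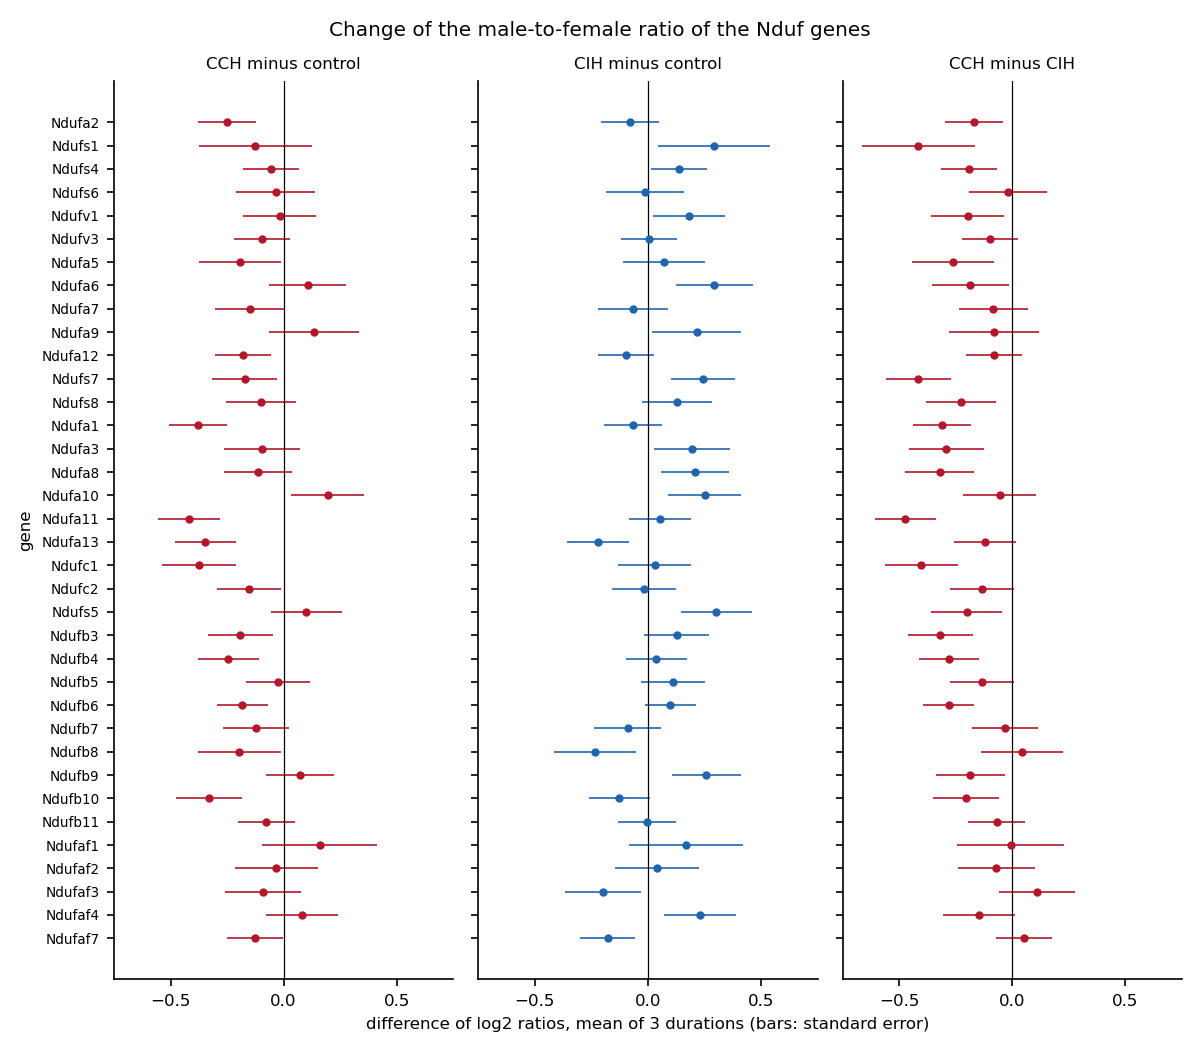
Difference of the log2 ratio (horizontal axis, mean of 3 durations, bars are standard errors) for the 36 tested Nduf genes (rows, in the order of the complex) between CCH and control, CIH and control, and CCH and CIH. No gene passed the adjusted threshold; 29 of 36 points lie below 0 for CCH minus control and 33 of 36 for CCH minus CIH, with Ndufa11 lowest in both.

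The values differed between durations within a condition. The members' median on the CCH arrays was -0.40 and -0.32 at 1 week, 0.14 and 0.10 at 2 weeks, and -0.34 and -0.47 at 4 weeks. On the CIH arrays it was -0.17 and -0.19, 0.057 and 0.073, and 0.14 and -0.12, against 0.17 and 0.046, -0.015 and -0.60, and -0.17 and -0.11 on the controls. The CCH medians were below both controls at 1 and 4 weeks and above both at 2 weeks, and the CIH medians were below both controls at 1 week and above both at 2 weeks. All units together had array medians between -0.071 and 0.033.

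**Figure D4:**
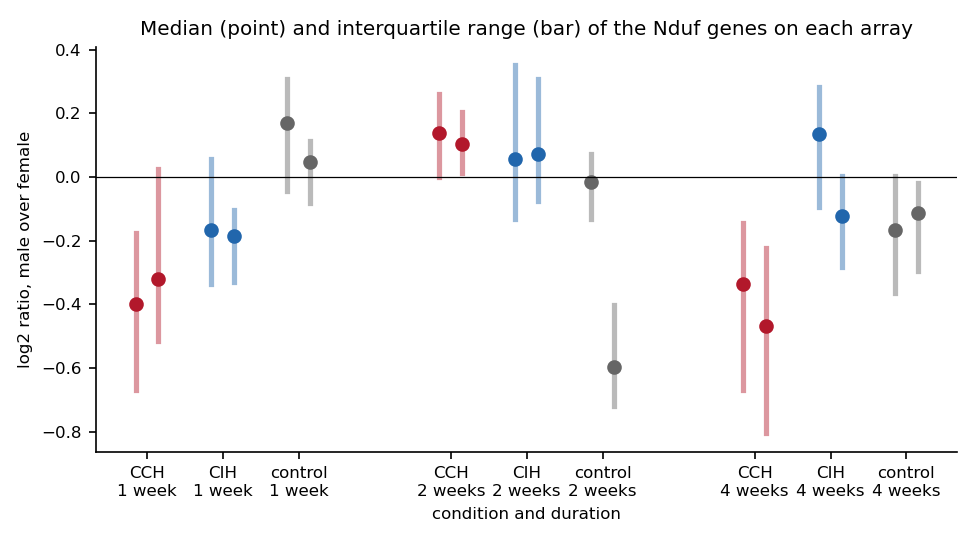
Median log2 ratio of the Nduf genes on each array (points) with the range between the lower and upper quartile of the genes (bars), for CCH (red), CIH (blue) and control (grey) at 1, 2 and 4 weeks. The CCH points lie at -0.40 and -0.32, at 0.14 and 0.10, and at -0.34 and -0.47, and 1 control array of 2 weeks lies at -0.60.

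At 1 week, 25 of 35 members with values on all 4 arrays were lower on both CCH arrays than on both controls and 0 were higher, where 19.5% of units were lower and 20% higher. The members' median difference was -0.48, with 34 of 36 negative. No member passed (limma, smallest adjusted p = 0.711), and 13 had an unadjusted p under 0.05, all lower, against 3.51% of units lower. Under CIH 22 of 36 were lower than both controls, against 13.8% of units, and Ndufa11 and Ndufs7 were higher, against 11.9% of units, with a median difference of -0.31, 0 members past the threshold (0% of units) and 5 at an unadjusted p under 0.05, all lower, against 1.48% of units. With CIH 1 week replicate 1 left out, 27 of 36 were lower on the other CIH array than on both controls (28% of units) and 2 higher (32.2% of units), and the median difference was -0.35. Without control 1 week replicate 1 the median difference was -0.34 for CCH and -0.23 for CIH.

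At 2 weeks most members lay on the other side of the controls. On both CCH arrays 24 of 36 members were above both controls and 1, the assembly factor Ndufaf7, was below, against 24.8% and 33.5% of units. The median difference was 0.42, with 35 of 36 positive. None passed (limma, smallest adjusted p = 0.498; 0.0195% of units passed), and 10 had an unadjusted p under 0.05, all higher, against 3.37% of units. Under CIH 18 members were above and 3 below both controls (Ndufa1, Ndufa13 and Ndufaf7), against 28.8% and 35.7% of units, with a median difference of 0.44, 0 members past the threshold (0.00974% of units) and 13 at an unadjusted p under 0.05, all higher, against 12.3% of units. These differences lean on control 2 weeks replicate 2: without it the median difference was 0.15 for CCH and 0.12 for CIH, and without control 2 weeks replicate 1 it was 0.76 and 0.65. Set against control 2 weeks replicate 1 alone, 24 members were higher and 7 lower on both CCH arrays (33.9% and 42.6% of units), and 18 higher and 10 lower on both CIH arrays (35.8% and 42.1%). Set against control 2 weeks replicate 2 alone, 35 were higher and 1 lower under CCH (38.8% and 49% of units), and 29 higher and 3 lower under CIH (39% and 45.3%).

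At 4 weeks 18 of 34 members were below both controls on both CCH arrays and 0 were above, against 22.7% and 15.9% of units. The median difference was -0.31, with 31 of 36 negative, 0 past the threshold (limma, smallest adjusted p = 0.119; 0% of units) and 6 at an unadjusted p under 0.05, all lower, against 9.55% of units. Under CIH 10 of 34 were above both controls and 2 below (Ndufaf3 and Ndufb4), against 11.7% and 13.2% of units, with a median difference of 0.13, 0 members past the threshold (0% of units) and 0 at an unadjusted p under 0.05, against 8.14% of units. That median was -0.061 without CIH 4 weeks replicate 1 and 0.22 without CIH 4 weeks replicate 2. Against CIH at the same duration, 20 of 36 members were lower on both CCH arrays and 0 higher, where 21% of units were lower and 19.3% higher.

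A test of whether the hypoxia effect changed with duration (limma F test) passed for 0 of 36 members and 0% of units. The smallest adjusted p among members was 0.371, while 14 members (38.9%) had an unadjusted p under 0.05, against 13% of units. Within CCH alone, both arrays of 2 weeks were above all arrays of 1 and 4 weeks for 21 of 35 members, against 17.7% of units. The same held for 9 of 36 members under CIH, against 15.5% of units, and for 0 of 34 in controls, against 5.36%. Without CIH 1 week replicate 1 it again held for 9 of 36 under CIH (17.1% of units). In controls it held for 4 of 34 without control 2 weeks replicate 2 (12.2% of units) and for 0 of 34 without replicate 1 (16.3%). Between successive CCH durations, 27 of 35 members were higher on both arrays of 2 weeks than on both of 1 week (32.8% of units), and 28 of 36 were lower on both arrays of 4 weeks than on both of 2 weeks (28% of units). In controls 20 of 36 were lower at 2 weeks than at 1 week (15.4% of units) and 17 of 34 lower at 4 weeks than at 1 week (12.3% of units). The count at 2 weeks was 20 without control 2 weeks replicate 2 (25.8% of units) and 34 without replicate 1 (34.2%).

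Averaged over the 3 conditions, 2 weeks against 1 week gave 0 members past the threshold (limma), against 0.00974% of units, and 4 at an unadjusted p under 0.05, all higher, against 10.5% of units. Ndufs1 led them. It read -1.98 and -0.63 on the CCH arrays of 1 week, 0.87 and 0.80 at 2 weeks, and -0.34 and -0.95 at 4 weeks. On the CIH arrays it read -0.30 and -0.18, 0.84 and 0.64, and 0.21 and -0.94, against 0.29 and 0.06, -0.09 and -0.72, and -0.93 and -0.10 on the controls. The 4 hypoxia arrays of 2 weeks were its 4 highest and did not overlap with any other array, and the CCH array of 1 week at -1.98 was its lowest.

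The difference of 2 weeks minus 1 week was 0.85 ± 0.25 (SE; limma adjusted p = 0.102) for Ndufs1. It was followed by Ndufb6 (0.26 ± 0.11, adjusted p = 0.204), Ndufa9, a Q module subunit that binds a nucleotide cofactor (0.45 ± 0.20, 0.205), Ndufb4 (0.30 ± 0.13, 0.22) and Ndufb5 (0.28 ± 0.14, 0.251), and each was higher on 4 of 6 arrays of 2 weeks. Ndufa9 differed by 0.26 without CCH 1 week replicate 1, and without control 2 weeks replicate 1 Ndufb4 differed by 0.17 and Ndufb5 by 0.16. For 4 weeks against 1 week 0 members passed (limma), against 0% of units, and 3 had an unadjusted p under 0.05, all lower, against 3.17% of units. Ndufa13 had the largest of these differences at -0.59 ± 0.14 (adjusted p = 0.219), lower on 5 of 6 arrays. It was followed by Ndufs6 (-0.40 ± 0.17, 0.482), Ndufa2 (-0.28 ± 0.13, 0.508), Ndufb7 (-0.27 ± 0.15, 0.566) and Ndufa10, a proximal arm subunit related to nucleoside kinases (-0.30 ± 0.16, 0.574). Ndufs6 differed by -0.26 without CCH 1 week replicate 2 and Ndufa10 by -0.16 without control 1 week replicate 1. The members' median differences were 0.093 and -0.010 for 2 and 4 weeks against 1 week. The first was 0.029 without control 2 weeks replicate 1, 0.19 without replicate 2 and 0.15 without CCH 1 week replicate 2. The one for 4 weeks had no stable sign, since it was 0.021 with quantile normalization, 0.013 with scaled arrays, 0.029 without CIH 4 weeks replicate 2 and 0.0063 without CCH 1 week replicate 2.

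By place in the complex, the median change of CCH minus control at 1 week was -0.40 in the N module, -0.51 in the Q module, -0.51 in the proximal arm, -0.53 in the distal arm and -0.30 in the assembly factors. At 2 weeks these medians were 0.29, 0.39, 0.42, 0.49 and 0.43, and at 4 weeks -0.16, -0.29, -0.44, -0.37 and -0.22. Each of the 5 groups thus had a negative median at 1 and 4 weeks and a positive one at 2 weeks. The changes at 2 weeks contain control 2 weeks replicate 2 and are given only with it. On that array the medians of the 5 groups, in the same order, were -0.61, -0.65, -0.60, -0.62 and -0.25. On control 2 weeks replicate 1 they were 0.017, 0.014, 0.015, -0.11 and -0.016. Averaged over the durations, the median change of CCH minus control was -0.076 in the N module and -0.15 in both the Q module and the proximal arm. It was -0.18 in the distal arm and -0.032 in the 5 tested assembly factors, against -0.036 over all units. Differences between these groups were not tested.

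Among the N and Q module core subunits the single arrays followed this course in part. Ndufs7 read -0.80 and -0.39 on the CCH arrays of 1 week, 0.19 and -0.04 on those of 2 weeks, and -0.67 and -0.81 on those of 4 weeks, against -0.06 and -0.25, 0.08 and -0.70, and -0.29 and -0.27 in controls. Ndufs8 read -0.9996 and -0.75, 0.27 and 0.08, and -0.10 and -0.65 under CCH, against -0.31 and -0.04, -0.12 and -0.91, and -0.01 and -0.16 in controls. Ndufv1 read -0.96 and -0.32, 0.26 and 0.20, and -0.32 and -0.67 under CCH, against 0.29 and -0.13, -0.41 and -0.62, and -0.35 and -0.50 in controls. At 1 week all 3 were below both controls, at 2 weeks Ndufs8 and Ndufv1 were above both, and at 4 weeks Ndufs7 was below both. Ndufv2 had no value on the CCH arrays of 1 week, and under CCH it read 0.30 and 0.23 at 2 weeks and -0.37 and -1.10 at 4 weeks, against 0.11 and -0.76, and -0.31 and -0.08 in controls.

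Separate spots of a gene show how far a value depends on the cDNA clone. The 38 members rest on 62 spots, and 21 genes had more than 1 spot while 17 had 1. For those 21 genes all spots lay on the same side of 0 in 214 of 364 comparisons of a gene on an array (58.8%), and the spot means had the same sign for 13 of 21 genes. Over pairs of spots of 1 gene, the share on the same side of 0 was 62.8% for the members and 58.2% for all genes. Both spots of Ndufa13 lay on the same side of 0 on 18 of 18 arrays, with means of -0.69 and -0.46. Both spots of Ndufa7 could be compared on 9 arrays and lay on the same side on 5, with means of -0.51 and -0.027. The spot means were -0.58, 0.021 and -0.097 for Ndufb10, -0.50, -0.062 and -0.23 for Ndufb5, and -0.047 and -0.45 for Ndufb4. They were -0.41 and -0.13 for Ndufa2, -0.19 and -0.28 for Ndufc1, and -0.16 and -0.30 for Ndufv1. The spots of Ndufb11, chosen here after its values were seen, matched in side on 3 of 18 arrays, with means of -0.57 and 0.32. Ndufs5, Ndufa11, Ndufs1, Ndufs7, Ndufs8, Ndufa1, Ndufs6, Ndufa6, Ndufa10 and Ndufv2 are among the 17 genes with 1 spot. The values of these 17 genes have no such check.

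**Figure D5:**
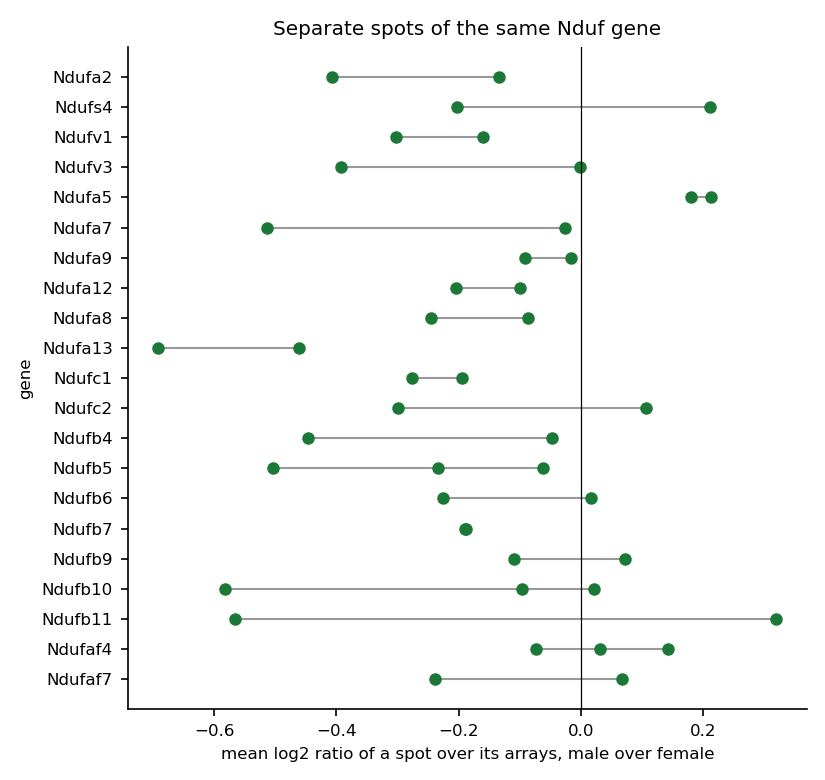
Mean log2 ratio over the arrays (horizontal axis, male over female) of each spot (points) of the 21 Nduf genes with more than 1 spot (rows), joined by a line per gene. The points of a gene lie on the same side of 0 for 13 of 21 genes; those of Ndufa13 lie at -0.69 and -0.46 and those of Ndufb11 at -0.57 and 0.32.

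Other genes of the respiratory chain were read from lists chosen by function. Of 57 listed subunits of complexes II to V, 33 had values and 26 were tested. None passed for CCH minus control, CIH minus control or CCH minus CIH (limma), with 3, 3 and 2 at an unadjusted p under 0.05, where 6.32%, 12.7% and 9.28% of units were. Their median change of CCH minus control was -0.31 at 1 week, 0.36 at 2 weeks and -0.25 at 4 weeks, and that of CIH minus control was -0.23, 0.53 and 0.017. On control 2 weeks replicate 2 their median was -0.67, with 0 of 32 above 0. Over all 18 arrays 2 were higher and 4 lower in males, against 8.99% and 18.7% of units, and their median ratio was -0.039. Of 21 listed complex I assembly factors and other genes without an Nduf name, 10 had values and 9 were tested, and the median change of CCH minus control was -0.16, 0.28 and -0.11 at 1, 2 and 4 weeks. Among these 9, Tmem186, an assembly factor of the membrane arm, was the only gene past the threshold in any comparison. It was at -0.39 ± 0.11 (SE, n = 6, limma adjusted p = 0.0395) on the CCH arrays against 0, where 7.89% of units were lower. Of 10 listed regulators of mitochondrial genes, 9 had values and 8 were tested, and 0 passed between conditions (limma), with 0 at an unadjusted p under 0.05 in CCH minus control and in CIH minus control. Against 0, Tfam, which packages and transcribes mitochondrial DNA, was higher in males over all arrays at 0.27 ± 0.05 (SE; limma adjusted p = 0.00135), above 0 on 16 of 18 arrays. It also passed on the CCH arrays (0.31 ± 0.08, adjusted p = 0.0304) and on the CIH arrays (0.35 ± 0.08, 0.0165). Tfam was the only one of the 8 to pass against 0. Of all units, 8.99% were higher over all arrays, 2.89% on the CCH arrays and 3.73% on the CIH arrays.

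Markers of other cells were high or low on some of the same arrays. The 4 red-cell markers with values had list medians of -1.71 to 1.26 under CCH, -2.63 to -0.071 under CIH and -0.28 to 0.87 in controls. The red-cell median was below 0 on both arrays of CCH 2 weeks (-1.71 and -0.14) and of CIH 2 weeks (-0.79 and -2.63). It was also below 0 on CIH 4 weeks replicate 1 (-1.68) and both control arrays of 1 week (-0.14 and -0.057). On all these arrays the members' medians were above 0. The red-cell median was above 0 and the members' median below 0 on both CCH arrays of 1 week (red cells 0.35 and 0.18). So it was on CCH 4 weeks replicate 1 (1.26), control 2 weeks replicate 2 (0.37) and both control arrays of 4 weeks (0.87 and 0.56). Both medians were below 0 on both CIH arrays of 1 week (red cells -0.38 and -0.071) and CCH 4 weeks replicate 2 (-0.13). The same held on CIH 4 weeks replicate 2 (-0.72) and control 2 weeks replicate 1 (-0.28). CIH 2 weeks replicate 2 and control 4 weeks replicate 1 had values for only 2 red-cell markers each. The 6 skeletal muscle markers had medians of -0.61 and -0.36 on the CCH arrays of 4 weeks and -0.68 on control 2 weeks replicate 2, where the members were low, and -0.76 on control 4 weeks replicate 1. On the CCH arrays of 1 week, where the members were low too, they were 0.017 and -0.19. The 7 fibroblast markers had medians of -0.30 to -0.076 under CCH, below 0 on 6 of 6 arrays, and of -0.26 to 0.25 under CIH, against -0.28 to 0.29 in controls. Their median change of CCH minus control was -0.22, 0.043 and -0.31 at 1, 2 and 4 weeks, and that of CIH minus control -0.39, 0.28 and -0.30. The 5 endothelial markers ranged from -0.18 to 0.22 under CCH, -0.27 to 0.12 under CIH and -0.32 to 0.33 in controls, and the 2 smooth muscle markers from -0.33 to 0.045, -0.36 to 0.029 and -0.55 to 0.043. The medians of other lists ranged from -0.95 to -0.15 under CCH, -0.72 to -0.14 under CIH and -0.56 to 0.081 in controls for 7 leukocyte markers, and from -0.42 to 0.70, -2.44 to -0.059 and -0.84 to 0.073 for 3 lung markers. Only 3 cardiomyocyte markers had values, with medians of 0.062 to 0.99 under CCH, -0.30 to 0.16 under CIH and -0.37 to 0.95 in controls. None had a value on CCH 1 week replicate 1. On CCH 1 week replicate 2 and CCH 2 weeks replicate 1 only 1 had a value (0.20 and 0.11). On CCH 2 weeks replicate 2 and both control arrays of 1 week 2 had values. The part of all these markers in the results for the Nduf genes was not tested.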

How the data were processed

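The files held values of 2-colour cDNA arrays. Per the labels, male cDNA was in Cy5 and female cDNA in Cy3. The deposited values are log2 ratios that the authors scaled so that the mean linear ratio is 1 on each array, as the values themselves show. Background correction, spot filters and normalization are not given in the sources used here. Spots were named through the platform annotation (18511 of 28704 with 1 symbol), and 38 of 38 members matched the RefSeq table.

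The median of each array was set to 0 and the spots of a symbol were averaged, so where values are missing the average rests on the remaining spots. Units with a value in each of the 9 groups (10272) were fitted as group means in R 4.3.3 with limma 3.58.1 (lmFit, contrasts.fit and eBayes, two-sided, with prior degrees of freedom of 5.95), with Benjamini-Hochberg adjustment over all units and a threshold of 0.05. The procedure was tested on simulated data. Figures were drawn with matplotlib 3.10.9. The text names, by rule, up to 10 members per direction past the threshold by size, filled to 5 by p-value, the nuclear core subunits, and complex I genes of other names past the threshold. The members, lists and tests were chosen with earlier results of these data known. Alternatives changed the centring, scaling, gene averaging, filters, array weights, model, label conflict and each array in turn. Arrays of the same title letter were not treated as pairs. Same-letter deviations correlated between -0.55 and 0.45 over 36 pairs of groups, above 0.1 in 15, which cannot exclude a pairing.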

Additional observations from a re-analysis of the deposited data

Results flagged for a closer look

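Among the groups of 6 arrays of a condition, 5 of 69 held an array far from the others. These flags are not independent of each other, since all those in controls come from the same array. Ndufa13 under CIH was at -0.95 on CIH 4 weeks replicate 1, with the nearest array at -0.62. In controls, control 2 weeks replicate 2 was the far array for Ndufa6 at -1.01 (nearest -0.31), Ndufb4 at -0.86 (nearest -0.11), Ndufb6 at -0.45 (nearest -0.10) and Ndufs8 at -0.91 (nearest -0.31). That array had 37 of 38 members below 0, and every comparison with the 2-week controls contains it.

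The difference between the median over members per array under CCH and in controls turned with duration, with both CCH arrays on the same side of both controls each time. It was -0.47 at 1 week, 0.43 at 2 weeks and -0.26 at 4 weeks. For CIH it was -0.28 at 1 week and 0.37 at 2 weeks, again with both CIH arrays on the same side of both controls. These turns between durations were not tested for the median. For single genes the F test of the hypoxia effect by duration passed for 0 of 36 members.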

How the results depend on the processing

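No result changed its direction while past the threshold under any alternative, and 0 members passed between conditions under all of them. Array weights gave 1 member for 2 weeks against 1 week (0 as reported), where 311 of 10272 units passed. These weights came out equal for both arrays of a group, so they could not set a single array apart. With every spot on its own, here and below, the counts are of spots and not of genes. In that setting 4048 of all units were past 0 over all arrays (2845 as reported). The members past 0 over all arrays were 26 spots in that setting (17 genes as reported, 14 to 20 genes without 1 array). Under CCH (11 as reported) they were 2 with arrays scaled to a common spread, 5 after quantile normalization, 17 with every spot on its own, 5 with additive terms, 17 with CIH 1 week replicate 1 regrouped as CCH 2 weeks, and 2 to 12 without 1 array. Under CIH (3 as reported) they were 5 without centring, 9 with every spot on its own, 1 with that array regrouped, and 1 to 3 without 1 array. Without centring the members' median on CCH 4 weeks replicate 1 was -0.51 (-0.34 as reported). The deposited array medians, which centring removed, ran from -0.17 to 0.018. For single named genes, 78 recomputed values lost the threshold, 3 gained it and 1479 stayed on their side of it; Ndufs8 under CCH lost it in 13 of the 18 fits that each left out 1 array. The members' median change of CCH minus control at 4 weeks was -0.15 with scaled arrays (-0.31 as reported).

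The reported fit does not pair arrays by letter. With the replicate block 0 members passed for CCH minus control and for CIH minus control, while the units past the threshold for CIH minus control were 169 (1 as reported). Over all units that count was also 199 with every spot on its own, 192 without centring, 115 with the median of spots, 109 with units on all 18 arrays, and 1 to 305 without 1 array. Units for 2 weeks against 1 week (1 as reported) were 311 with array weights and 0 to 563 without 1 array. Units for CCH minus CIH (1 as reported) were 0 to 196 without 1 array. Units under CCH against 0 (1107 as reported) ran from 199 with scaled arrays to 1787 without centring, and under CIH (1243 as reported) from 145 without CIH 1 week replicate 1 to 2202 without CIH 4 weeks replicate 2, with 281 for the regrouped array and 1940 with every spot on its own. Units in controls against 0 (1 as reported) were 21 with scaled arrays, 33 after quantile normalization and 34 without control 1 week replicate 2. Units for CIH minus control at 2 weeks were 162 with array weights (1 as reported). The cause of these shifts was not tested. With 2 arrays in a group, the spread is pooled over the groups.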
